A study of Mus musculus with 13 samples.

Results

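A set of 10 keratin and keratin-regulating genes was read in mouse 4T1 mammary tumours: 4 simple keratins (Krt7, Krt8, Krt18 and Krt19), 3 basal keratins with the transcription factor Trp63 (Krt5, Krt14, Krt15 and Trp63), and 2 epidermal keratins (Krt1 and Krt10). These 10 genes were chosen by symbol, out of 19057 genes named on the larger Illumina platform and 16593 on the smaller one. They were read by 12 probes on the larger platform and 10 on the smaller. The 4T1 line is a mouse mammary carcinoma, here implanted orthotopically. The larger platform was used for an antibody experiment with 3 arrays in each of 3 groups. These were tumours of wild-type mice under control IgG, of PDGFRb-TK mice under control IgG, and of PDGFRb-TK mice under anti-Ang2, which blocks angiopoietin-2. The smaller platform held 4 single arrays, 1 each for early pericyte ablation, its control, late pericyte ablation and its control. The PDGFRb-TK transgene makes a viral thymidine kinase under the Pdgfrb promoter, and ganciclovir kills the dividing cells that make it; pericytes are the intended target, but other cells that use this promoter are reached as well. Every host in every group, wild-type ones included, received ganciclovir. The labels also carry a positive transgene field for every sample, and the genotype field of the 2 pair controls reads PDGFRb-TK while their descriptions call them wild type, so groups were taken from the titles. Nothing in the labels gives the hosts' strain, sex or age, or says whether the replicates are different animals; a p-value therefore covers no more than how far these arrays differ, part of which may be technical.

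Keratins are the intermediate filament proteins of epithelial cells and assemble as obligate pairs of a type II and a type I chain. Krt8 with Krt18, joined in many glands by Krt7 and Krt19, forms the filaments of simple and luminal epithelium and of most mammary carcinomas. Krt5 with Krt14 forms those of the basal layer of skin and of mammary myoepithelium, where Trp63 is the master transcription factor and Krt15 marks basal and hair follicle stem cells. Krt1 with Krt10 replaces the basal pair when keratinocytes leave the basal layer and begin to cornify, so this pair marks stratified, keratinising epithelium such as skin.

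The promoters of the simple pair and the basal pair are shown because the chains of each pair are made together in their home tissue, and the data below set both pairs side by side over the arrays. The sequences are RefSeq's for GRCm38.p6, from 250 bases before to 50 bases after the annotated start, in the direction of transcription. Krt8 lies at chr15:102004293-102004592 (minus strand), Krt18 at chr15:102027966-102028265 (plus strand), Krt5 at chr15:101712856-101713155 (minus strand) and Krt14 at chr11:100205981-100206280 (minus strand). Capitals mark matches on either strand to the TATA box TATAAA, the AP-1 motif TGANTCA, the GC box GGGCGG and the AP-2 motif GCCNNNGGC.
Krt8: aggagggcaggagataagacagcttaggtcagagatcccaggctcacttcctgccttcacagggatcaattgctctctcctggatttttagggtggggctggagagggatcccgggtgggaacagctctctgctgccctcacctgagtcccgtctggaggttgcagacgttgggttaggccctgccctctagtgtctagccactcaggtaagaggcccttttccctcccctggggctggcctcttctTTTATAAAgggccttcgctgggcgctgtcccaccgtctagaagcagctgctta
Krt18: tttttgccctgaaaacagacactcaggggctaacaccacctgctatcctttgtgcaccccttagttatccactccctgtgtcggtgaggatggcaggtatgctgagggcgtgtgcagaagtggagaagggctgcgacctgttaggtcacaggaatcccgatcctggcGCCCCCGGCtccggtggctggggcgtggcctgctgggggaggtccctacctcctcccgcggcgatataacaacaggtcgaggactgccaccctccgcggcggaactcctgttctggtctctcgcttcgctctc
Krt5: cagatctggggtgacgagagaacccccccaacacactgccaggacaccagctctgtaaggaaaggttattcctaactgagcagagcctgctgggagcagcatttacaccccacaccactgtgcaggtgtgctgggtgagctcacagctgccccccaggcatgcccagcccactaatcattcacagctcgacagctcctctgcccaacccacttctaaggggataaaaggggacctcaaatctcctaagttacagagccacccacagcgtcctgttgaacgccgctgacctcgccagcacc
Krt14: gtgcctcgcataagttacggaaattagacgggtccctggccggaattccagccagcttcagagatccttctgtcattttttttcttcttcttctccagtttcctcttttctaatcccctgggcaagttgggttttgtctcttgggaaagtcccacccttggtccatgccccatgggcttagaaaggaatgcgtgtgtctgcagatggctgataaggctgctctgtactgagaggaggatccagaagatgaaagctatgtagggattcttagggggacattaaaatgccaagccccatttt
Krt8 held 2 overlapping TATA box matches, one per strand, and Krt18 held 1 AP-2 match. Krt5 and Krt14 held none of the 4 motifs in this window. Among all 32851 promoters of the same length, 13.6% held the TATA box, 7.81% the AP-1 motif, 35.7% the GC box and 16.6% the AP-2 motif. A match describes these letters only. Of the 10 genes, 6 had a promoter entry; of the others shown by count alone, Krt7 held 4 GC box and 2 AP-2 matches, and Krt10 held 1 TATA box match.

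By the number of genes at least 2-fold high on them 2 arrays stood apart, and only the first did so by correlation as well. The array of replicate 2 of the PDGFRb-TK anti-Ang2 group had a median correlation of 0.931 with the other 8 arrays, against 0.968 to 0.977 for the rest. On it, 732 of 11057 genes (6.62%) lay at least 2-fold above the median of the other 8 arrays. Replicate 3 of the PDGFRb-TK IgG group came next, with 267 genes (2.41%), and the remaining 7 arrays had 63 to 178. At least 8-fold above lay 114 genes on the first array and 25 on the second, the latter also the count on anti-Ang2 replicate 3. In median correlation the second array, at 0.97, lay within the range of the rest. The genes highest on both arrays were loricrin (Lor) and Krtdap, products of cornifying epidermis, which lay 8.50 and 7.74 log2 units above the other arrays on the anti-Ang2 array and 6.03 and 5.79 on the IgG array; the medians they are set against, 5.19 and 5.04, were near background. The same 2 genes were also the highest on wild-type replicate 3, at 4.96 and 3.48 above the other arrays. Lor and Krtdap were named after their values were seen. Values without the first array, and without both, stand beside the results they change. Leaving out both was chosen after the data were seen. Detected probes made up 40.6 to 43.2% of each array in the antibody experiment and 42.6 to 48.9% in the pairs. In the pairs, the late control's share was set to the lowest of the other arrays and was not measured. The number of arrays limits the precision.

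The simple keratins mark the epithelial cells of these carcinomas, and Krt7, Krt8, Krt18 and Krt19 were each detected (detection p below 0.05) on all 9 arrays of the larger platform and all 4 of the smaller. Cdh1, the epithelial cadherin, was also detected on all 9, while the probe for Epcam, a surface protein of simple epithelium, was detected on 0 of 9; both were named as a check of the tissue, after their values were seen. Krt14, Trp63 and Krt10 were detected on all 9 arrays too. Krt15 was detected on 6, Krt5 on 3 and Krt1 on 2. Second probes for Krt8 and Trp63 were detected on none of the 9 arrays and are not used further. On the 9 arrays a gene entered the group tests when detected on at least 3, which left out Krt1 and kept 9 of the 10 genes, Krt5 through the arrays where it was high. All signals below are log2 values after background correction and quantile normalisation within a platform; the dimmest detected probes lay at 4.99 to 5.11 on the 9 arrays.

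No difference between groups in a simple keratin passed the test. Over all 9 arrays Krt8 spanned 13.19 to 13.90 and Krt18 11.85 to 12.71, whereas Krt19 spanned 6.13 to 8.11. Krt8, the type II chain of the simple pair, read 13.43, 13.90 and 13.82 in the wild-type IgG group, 13.28, 13.58 and 13.27 in the PDGFRb-TK IgG group, and 13.55, 13.19 and 13.39 in the PDGFRb-TK anti-Ang2 group. Its lowest value was on the anti-Ang2 replicate 2 array and its highest 2 were wild-type, but the lowest wild-type value lay within the range of both other groups. The group means were 13.72 ± 0.25, 13.38 ± 0.18 and 13.38 ± 0.18 (SD, n = 3 each). The difference between PDGFRb-TK and wild-type hosts under IgG was -0.34 (SE 0.18, 95% interval -0.75 to 0.07), and -0.28 without both outlying arrays, which did not pass limma's test (adjusted p = 0.9993).
Krt18, its type I partner, read 12.28, 12.71 and 12.59 in the wild-type group, 12.19, 12.54 and 12.26 in the PDGFRb-TK IgG group, and 12.56, 11.85 and 12.22 in the anti-Ang2 group. The same array was again lowest, and all 3 groups overlapped. Its differences were -0.19 (SE 0.21) for PDGFRb-TK against wild-type hosts, -0.12 (SE 0.21) for anti-Ang2 against IgG, and -0.32 (SE 0.21) for anti-Ang2 in PDGFRb-TK hosts against wild type with IgG. Without anti-Ang2 replicate 2 the second of these turned to 0.06 (SE 0.20) and the third was -0.14 (SE 0.20); without both outlying arrays the first was -0.16 and the second 0.02.

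Krt7, a type II keratin of glandular ducts, read 10.93, 11.34 and 11.64 in the wild-type group, 11.41, 11.04 and 11.29 in the PDGFRb-TK IgG group, and 11.97, 11.24 and 11.58 in the anti-Ang2 group. The highest value belonged to anti-Ang2 replicate 1, and the groups overlapped. Anti-Ang2 against IgG in PDGFRb-TK hosts gave 0.35 (SE 0.24, 95% interval -0.19 to 0.89), and 0.52 (SE 0.24) without anti-Ang2 replicate 2. Krt19, the small type I keratin of luminal cells, had the widest spread of the 4. It read 6.13, 6.77 and 6.28 in the wild-type group, 7.61, 6.24 and 6.56 in the PDGFRb-TK IgG group, and 8.11, 7.50 and 6.68 in the anti-Ang2 group. Anti-Ang2 replicates 1 and 2 and PDGFRb-TK IgG replicate 1 were high, and anti-Ang2 replicate 3 lay inside the wild-type range. The anti-Ang2 group was 1.04 above wild type (SE 0.43, 95% interval 0.07 to 2.01), or 2.05-fold, and 1.0 above without replicate 2. The unadjusted p was 0.038 in limma and the adjusted p 0.672, and without replicate 2 they were 0.076 and 0.771; the exact two-sided permutation p was 0.2, where 3 against 3 arrays cannot go below 0.1.

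**Figure D1:**
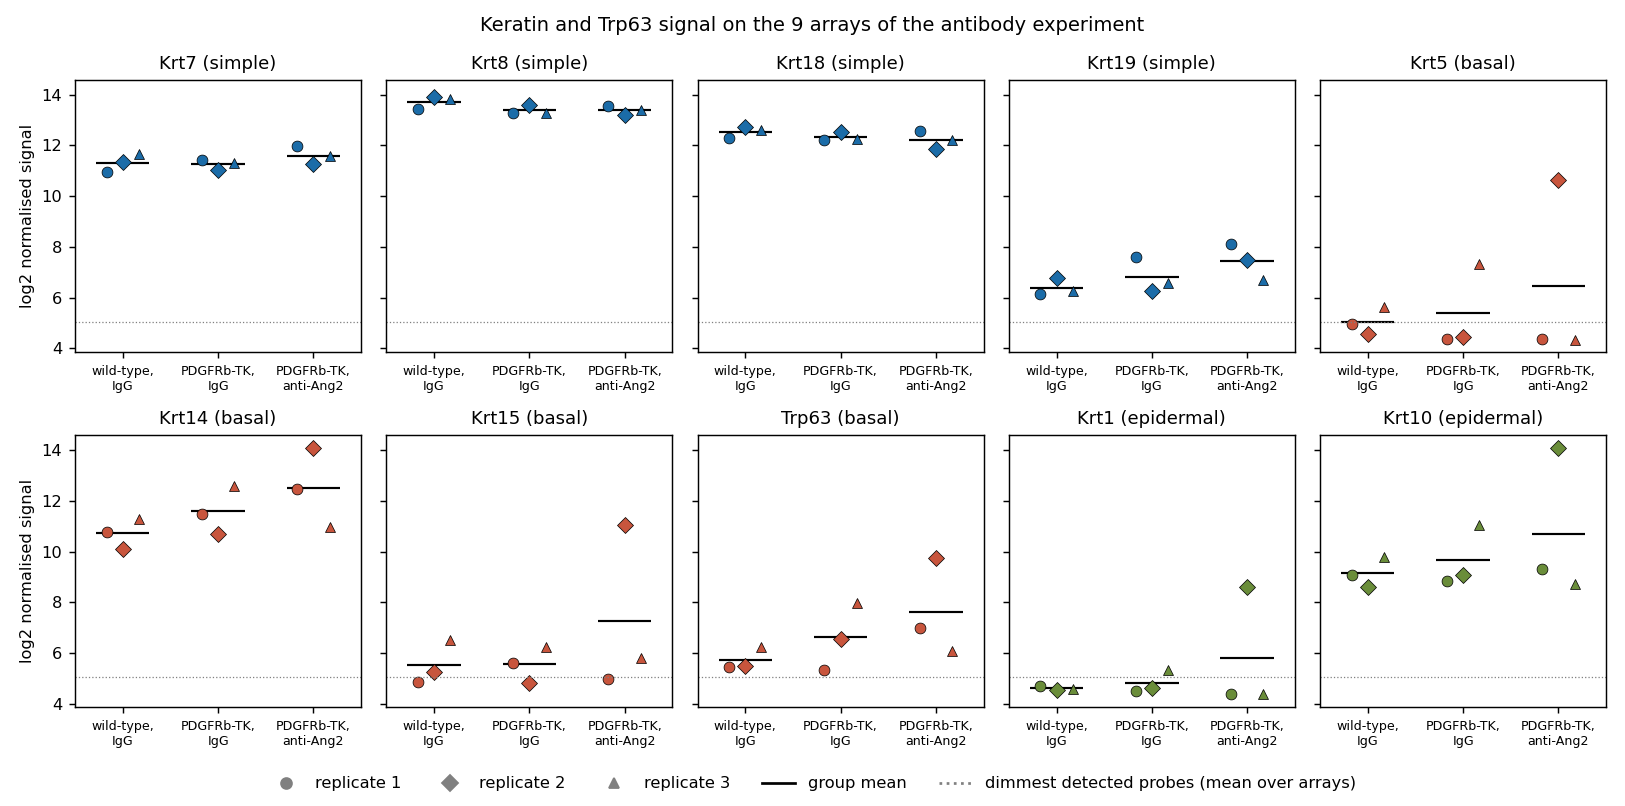
Log2 normalised signal of the 10 genes on the 9 arrays, 1 panel a gene, with the 3 groups on the horizontal axis; symbols mark replicates, bars are group means and the dotted line is the mean signal of the dimmest detected probes. Krt8 stays between 13.19 and 13.90 on all arrays, while anti-Ang2 replicate 2 is far above its group in Krt5 (10.62), Krt15 (11.06), Krt1 (8.59) and Krt10 (14.08).

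Each of the 4 basal genes had its highest value on anti-Ang2 replicate 2. Krt5, the type II chain of the basal pair, read 4.96, 4.58 and 5.62 in the wild-type group, 4.39, 4.44 and 7.34 in the PDGFRb-TK IgG group, and 4.35, 10.62 and 4.35 in the anti-Ang2 group. It was detected on 1 array of each group: wild-type replicate 3, PDGFRb-TK IgG replicate 3 and anti-Ang2 replicate 2. On the last of these its signal was at least 46.0-fold the median of the other 8 arrays, a bound because only 2 of them detected it. Its group differences had SE 1.56. Anti-Ang2 against IgG was 1.05 with all arrays, -1.04 (SE 0.80) without anti-Ang2 replicate 2 and -0.06 without PDGFRb-TK IgG replicate 3 as well, when neither group had a detected value. PDGFRb-TK against wild type turned from 0.34 to -0.64 without PDGFRb-TK IgG replicate 3, when no PDGFRb-TK IgG value was detected. Behind the -1.04 no anti-Ang2 value was detected either. Each sets background readings against a group with 1 detected value, so neither is an exact change.
Krt14, the type I partner of Krt5, was bright on every array. It read 10.77, 10.12 and 11.27 in the wild-type group, 11.49, 10.68 and 12.60 in the PDGFRb-TK IgG group, and 12.47, 14.10 and 10.97 in the anti-Ang2 group. The lowest value was wild-type and the highest was anti-Ang2 replicate 2, and all groups overlapped. PDGFRb-TK against wild-type hosts gave 0.87 (SE 0.75, 95% interval -0.83 to 2.57), or 1.83-fold, and 0.37 without PDGFRb-TK IgG replicate 3. Anti-Ang2 in PDGFRb-TK hosts against wild type gave 1.79 (SE 0.75), or 3.46-fold, with an unadjusted p of 0.041 and an adjusted p of 0.672 in limma and an exact permutation p of 0.2. Without anti-Ang2 replicate 2 that difference was 1.0 (SE 0.62, unadjusted p 0.143, adjusted p 0.788 in limma).

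Krt15, a basal and stem cell keratin, read 4.84, 5.25 and 6.52 in the wild-type group, 5.60, 4.84 and 6.25 in the PDGFRb-TK IgG group, and 4.98, 11.06 and 5.80 in the anti-Ang2 group. Anti-Ang2 replicate 2 alone was high, at 49.9-fold the median of the other 8. Anti-Ang2 against IgG was 1.72 (SE 1.35) with that array, -0.17 (SE 0.55) without it and 0.17 without both outlying arrays. Trp63, which drives the basal programme, read 5.44, 5.48 and 6.25 in the wild-type group, 5.32, 6.57 and 7.97 in the PDGFRb-TK IgG group, and 7.0, 9.75 and 6.08 in the anti-Ang2 group. The ranges overlapped, with anti-Ang2 replicate 2 highest and PDGFRb-TK IgG replicate 3 next. Its difference between the anti-Ang2 group and wild type was 1.89 (SE 0.92, adjusted p 0.673 in limma), and 0.82 (SE 0.67) without anti-Ang2 replicate 2. PDGFRb-TK against wild type gave 0.90 (SE 0.92), and 0.22 without PDGFRb-TK IgG replicate 3.

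The epidermal pair showed the same 2 arrays. Krt10, the type I keratin of cells leaving the basal layer, read 9.06, 8.62 and 9.81 in the wild-type group, 8.83, 9.09 and 11.05 in the PDGFRb-TK IgG group, and 9.30, 14.08 and 8.74 in the anti-Ang2 group. Anti-Ang2 replicate 2 stood at 32.0-fold the median of the other 8 arrays and PDGFRb-TK IgG replicate 3 at 3.93-fold, and the other values of all groups overlapped. Anti-Ang2 against IgG was 1.05 (SE 1.25) with all arrays, -0.63 (SE 0.63) without anti-Ang2 replicate 2 and 0.06 without both outlying arrays. Krt1, its type II partner, read 4.72, 4.53 and 4.59 in the wild-type group, 4.49, 4.62 and 5.33 in the PDGFRb-TK IgG group, and 4.41, 8.59 and 4.40 in the anti-Ang2 group. Only anti-Ang2 replicate 2 and PDGFRb-TK IgG replicate 3 were above background. The anti-Ang2 mean was at least 1.68-fold the wild-type mean, a bound because the probe was not above background on any wild-type array. Krt1 was outside the fit, and without anti-Ang2 replicate 2 neither group was above background.

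Set side by side, the groups of keratins gave no called difference in any comparison. For PDGFRb-TK against wild-type hosts under IgG, 0 of 10 genes had arrays that did not overlap between groups, where 8.27% of all genes tested did, and 0 of 9 in the fit passed an adjusted p of 0.05 in limma, where the background was 0.0%. The smallest unadjusted p was 0.094, for Krt8. The median difference was -0.12 for the simple keratins, 0.60 for the basal genes and 0.35 for the epidermal pair, against -0.02 over all 11057 genes. At an unadjusted p below 0.05 there were 0 of 9, against 2.94% of all genes. Of the 10 differences, 7 were above 0, as were 46.4% of all genes. Leaving out PDGFRb-TK IgG replicate 3 together with anti-Ang2 replicate 2 brought the basal median to -0.05 and the epidermal to -0.13, with the simple median at -0.12. PDGFRb-TK IgG replicate 3 was singled out after its high epidermal genes were seen, so a fall in the basal and epidermal medians followed from that choice.

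Anti-Ang2 against IgG in PDGFRb-TK hosts again had 0 of 10 genes without overlap (6.95% of all genes) and 0 of 9 called (0.0% of all genes), and 0 of 9 had an unadjusted p below 0.05 (3.34% of all genes). Of the 10 differences 8 were above 0, against 46.9% of all genes. Its medians were 0.17 for the simple keratins, 1.02 for the basal genes and 1.02 for the epidermal pair, against -0.02 over all genes. Without anti-Ang2 replicate 2 they were 0.31, -0.12 and -0.52. All 4 simple keratins then lay above 0, and of the 4 basal genes 3 lay below, where 5353 of all 11057 genes lay above 0. Without PDGFRb-TK IgG replicate 3 as well, the medians were 0.25, 0.39 and -0.05, so the sign of the basal median depended on both arrays. All 4 simple keratins and 3 of the 4 basal genes were then above 0, as were 5354 of all genes.
Anti-Ang2 in PDGFRb-TK hosts against wild type with IgG had 0 of 10 without overlap (12.6% of all genes) and 0 of 9 called (0.0% of all genes), with 2 of 9 at an unadjusted p below 0.05 (7.39% of all genes), Krt19 and Krt14. Again 8 of 10 differences were above 0, against 44.6% of all genes. The medians were -0.01 for the simple, 1.77 for the basal and 1.36 for the epidermal group, against -0.04 over all genes, and 0.17, 0.34 and -0.18 without anti-Ang2 replicate 2. The comparisons share the PDGFRb-TK IgG or wild-type arrays, so their values are not independent. In bulk tissue, fewer cells of a type and less RNA per cell cannot be told apart.

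**Figure D2:**
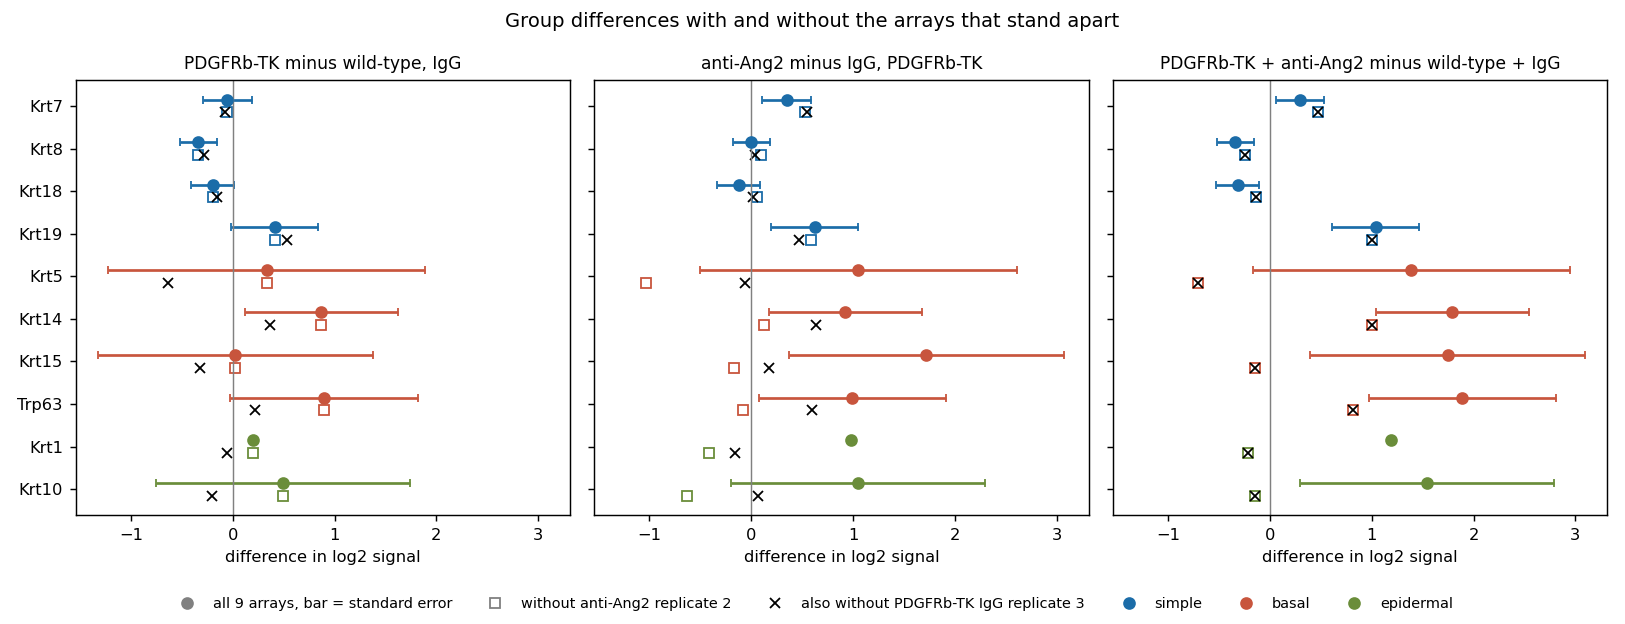
Difference in log2 signal of each gene in the 3 group comparisons, with the standard error over all 9 arrays (filled circles), without anti-Ang2 replicate 2 (open squares) and also without PDGFRb-TK IgG replicate 3 (crosses); Krt1 has no bar because it was outside the fit. In anti-Ang2 against IgG the basal and epidermal circles, near 1.02 in the median, move to -0.12 and -0.52 without anti-Ang2 replicate 2 and to 0.39 and -0.05 without both arrays, while the simple keratins move from 0.17 to 0.31 and 0.25.

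Partner chains of a filament could be followed together over the 9 arrays. Krt8 and Krt18 had a Pearson correlation of 0.91, and 0.93 over the 8 arrays without anti-Ang2 replicate 2, which placed Krt18 at rank 14 and rank 11 among all genes by likeness to Krt8. Over the 7 arrays without PDGFRb-TK IgG replicate 3 as well it was 0.93. Krt14 and Krt5 had 0.82 over 9 arrays, 0.51 over 8 and -0.12 over 7, on which Krt5 was detected once. On anti-Ang2 replicate 1 the Krt14 signal of 12.47 lay next to the 12.60 of PDGFRb-TK IgG replicate 3, but Krt5 was not detected on the former and read 7.34 on the latter. Krt15 on that anti-Ang2 array was not detected either, Krt10 read 9.30 and Trp63 7.0. All arrays had Krt14, and 6 of 9 had it without detectable Krt5. Such correlations over arrays share normalisation and sample handling and are given as a description.

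**Figure D3:**
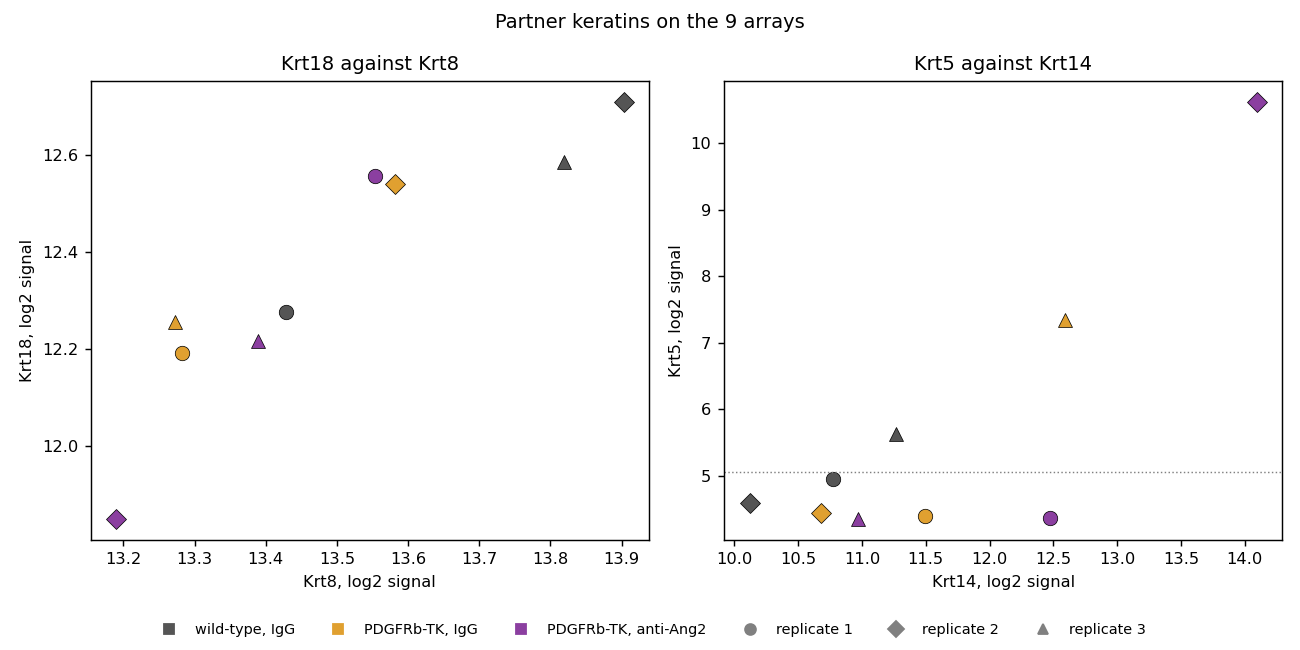
Log2 signal of Krt18 against Krt8 (left) and of Krt5 against Krt14 (right) on the 9 arrays, coloured by group with a symbol for each replicate; the dotted line on the right is the mean signal of the dimmest detected probes. Krt18 rises with Krt8 (r = 0.91), and Krt5 leaves the background on 3 arrays while Krt14 spans 10.12 to 14.10.

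Over all 9 arrays the genes most like Krt8 were Gm13199 (r = 0.96), Dusp18, Leng8, Morf4l2 and Rmdn1, and over 8 arrays 1810062O18Rik (r = 0.99), Sgk2, Leng8, Gm13199 and Rbms2. The genes most like Krt14 over 9 arrays were Cytip (r = 0.94), Asprv1, Aqp3, Baiap2l1 and Hpx; Asprv1 is a protease of the cornifying layer and Aqp3 a water channel of basal keratinocytes. Without anti-Ang2 replicate 2 the 5 were entirely others: Phldb2 (r = 0.96), Ccl17, Plk2, Pdgfb and Sec23ip. Krt14 correlated with Trp63 at 0.90 over 9 arrays, and among the 6 pairs of basal genes the correlations ran from 0.79 to 0.93 over 9 arrays, from 0.31 to 0.75 over 8 and from -0.12 to 0.57 over 7. Between the basal and the epidermal genes they ran from 0.80 to 0.99, from 0.36 to 0.95 and from -0.50 to 0.74. Between simple and other keratins the median over 24 pairs was -0.35, -0.18 and 0.19 in the same order, so its sign turned only without both outlying arrays. Single pairs differed in this. Krt8 with Krt5 gave -0.50, -0.22 and 0.48, whereas Krt8 with Krt14 gave -0.65, -0.52 and -0.35.

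Genes of the layers around these keratins were read on the same arrays. Of 32 genes of suprabasal epidermis and the cornified envelope, 28 were detected on anti-Ang2 replicate 2, 26 on PDGFRb-TK IgG replicate 3, 18 on wild-type replicate 3 and 6 to 13 on the others. Their mean signal was 8.46 on anti-Ang2 replicate 2, against 4.92 to 7.07 on the other 8. Dmkn, a secreted product of differentiating keratinocytes, read 12.36 there against 4.67 to 9.19 elsewhere. Of this list 22 genes passed the filter, some of them only through the arrays where they were high; 0 were called for anti-Ang2 against IgG, 20 differences were above 0 with a median of 0.80, and without anti-Ang2 replicate 2 only 2 were above 0, with a median of -0.66. Without both outlying arrays 17 were above 0, with a median of 0.16. Of all 11057 genes, 5188, 5353 and 5354 were above 0 in these 3 settings, in that order.
Values of single genes on these 2 arrays ran in both directions. Krt16, a stress keratin of wounded and hyperproliferative skin, read 9.55 on PDGFRb-TK IgG replicate 3 and 8.48 on anti-Ang2 replicate 2. Sprr1b, a cornified envelope precursor of stressed keratinocytes, read 8.03 and 4.74 on these arrays, and Lce3b, a late cornified envelope protein, 6.72 and 4.60. Krt15 read 6.25 and 11.06, and Krt77, another type II keratin of skin, 5.43 and 9.15. This sets 1 array against 1, so there is no test, and Krt16, Sprr1b, Lce3b and Krt77 were picked after their values were seen.

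Basal layer genes outside the 10 were high on the same arrays. Krt17, a keratin of stressed and basal epithelium, read 11.60 on anti-Ang2 replicate 2, 11.10 on PDGFRb-TK IgG replicate 3 and 6.26 to 8.27 on the other 7. Col17a1, the hemidesmosomal collagen, read 11.01 on the first, 8.30 on the second and at most 6.54 elsewhere. In this list of 20 genes, 14 passed the filter and 0 were called in any comparison; its median difference for anti-Ang2 against IgG was 0.48, -0.23 without anti-Ang2 replicate 2 and 0.11 without both outlying arrays. Hair follicle and hair shaft genes stayed near background, and 0 of 21 were detected on anti-Ang2 replicate 2 and 0 to 2 on the others.
Other simple epithelial genes ran in both directions on anti-Ang2 replicate 2. Krt23, a type I keratin, had its highest value there, 10.46 against 5.43 to 8.83 on the other 8, as did Esrp2, an epithelial splicing regulator, with 7.94 against 6.22 to 7.71; both were picked after their values were seen. Cldn4, a tight junction claudin, read 10.92 there against 11.39 to 12.96 on the other 8, and Elf3, a transcription factor of simple epithelium named after its values were seen, 5.28 against 6.09 to 7.36. The mean of the 22 genes was 7.22, within the 6.81 to 7.59 of the others. Muc1, an apical mucin of luminal cells, was 1.32 higher with anti-Ang2 than in wild type (SE 0.51, unadjusted p 0.030, adjusted p 0.672 in limma), and 1.75 without replicate 2. With that array left out the anti-Ang2 group held 2 arrays. All 16 genes of this list in the fit were then above 0 in this comparison, as were 5071 of all 11057 genes. Their median was 0.31 against -0.03 over all genes, and 0 were called. Rab25, a vesicle transport protein of epithelial cells, gave 0.80 (SE 0.58) with all arrays and 0.96 without that one.

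Markers of other cell types moved with the same array. The mean of 10 mast cell genes was 8.72 on anti-Ang2 replicate 2 against 5.38 to 6.96 on the others, with 8 of 10 detected there and 4 to 8 elsewhere. That of 11 adipocyte genes was 7.85 against 5.01 to 6.76, with 7 of 11 detected there and 2 to 7 elsewhere. Skeletal muscle genes did not: their mean was 5.02 there, and it was high on PDGFRb-TK IgG replicate 3 (8.43), anti-Ang2 replicate 3 (9.21) and wild-type replicate 3 (8.65). Of 7 sebaceous genes 3 were detected there and 0 to 2 elsewhere, and melanocyte genes gave 2 of 6 there and 1 to 2 elsewhere. Milk protein genes gave 2 of 9 on every array. Of 11 genes of vimentin-type filaments and the mesenchymal state, 10 passed the filter and 0 were called, with medians of -0.16, -0.08 and -0.12 in the 3 comparisons. The part of these tissues in the keratin values was not tested.

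**Figure D4:**
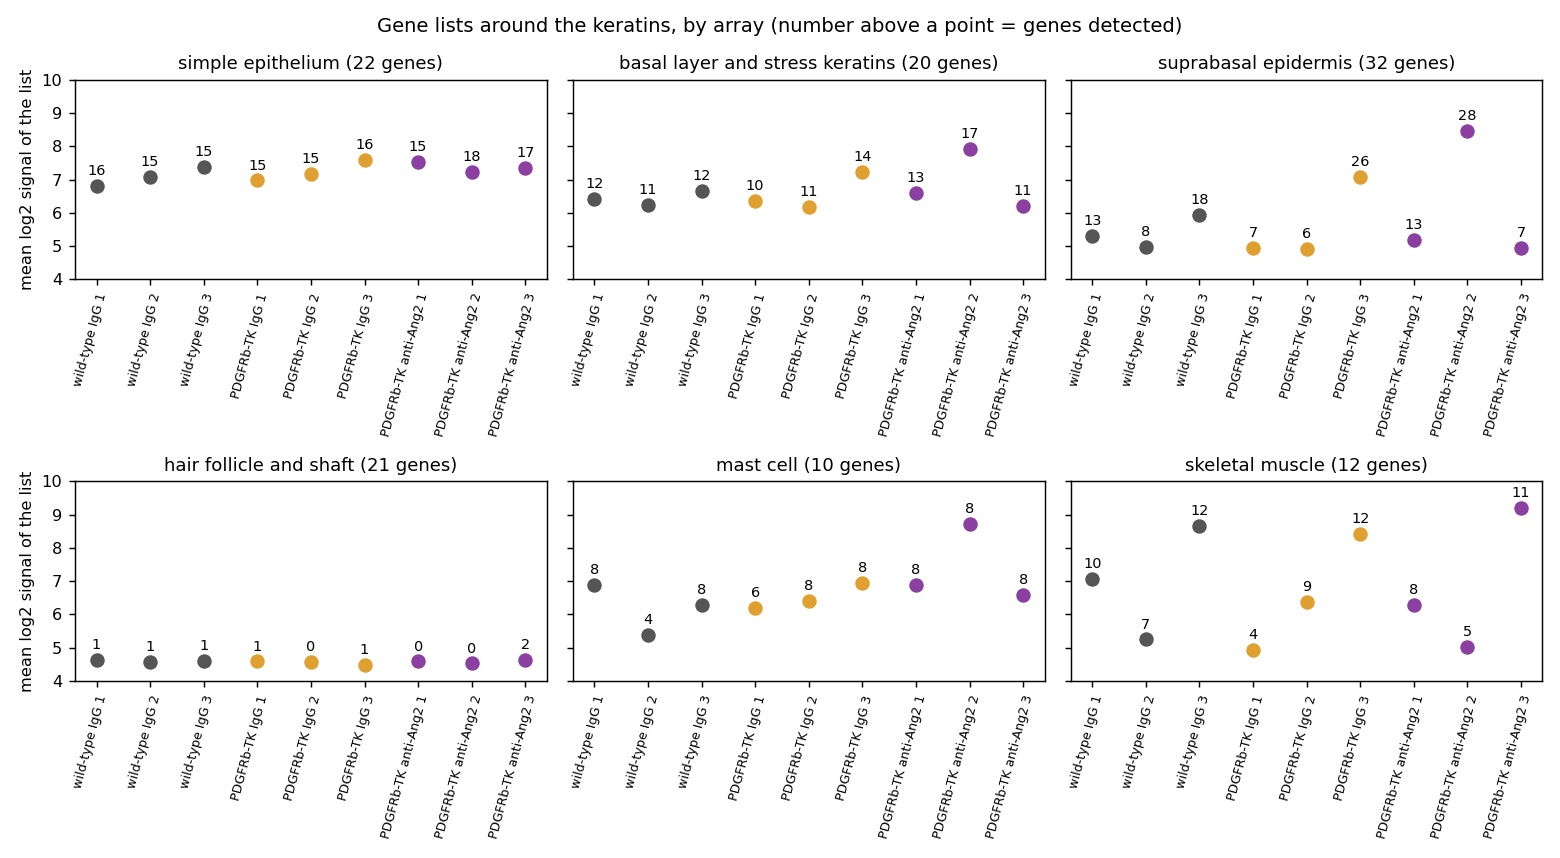
Mean log2 signal of 6 gene lists on each of the 9 arrays, coloured by group, with the number of list genes detected above each point. Suprabasal epidermal genes peak on anti-Ang2 replicate 2 (28 of 32 detected) and PDGFRb-TK IgG replicate 3 (26), hair genes are near background on all arrays, and skeletal muscle genes peak on replicate 3 of each group.

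The early and late pairs gave the keratins without the 2 arrays that stood apart, but with 1 array a condition and so with no test. In the early pair, 0 of the 8 genes detected reached a 2-fold ratio, where 1.09% of 9714 genes did. In the late pair 0 of 8 did, where 1.06% did. The late count depended on the processing. Over other settings the late log2 ratio reached 1.04 for Krt14 and 1.05 for Trp63, past 2-fold. With the authors' values 637 of 9714 genes reached 2-fold in the late pair. Krt14 read 11.11 with early ablation and 10.49 in its control, a ratio of 1.54, and 11.40 with late ablation and 10.42 in its control, a ratio of 1.97. Of the 8 genes detected, 6 had an early ratio above 1 (48.2% of all genes) and 7 a late ratio above 1 (50.3% of all genes). For Krt14 both were above 1, as were both for 25.7% of all genes. Trp63 gave 1.13 early, from 6.70 and 6.53, and 1.37 late, from 7.0 and 6.55. Krt15 was detected with ablation and not in either control, so its ratios of at least 1.25 early and at least 1.04 late are bounds. In the late control detection was set by rank, and its Krt15 signal before normalisation, 109.1, was above the 94.3 of late ablation. Krt5 and Krt1 were not detected on any of the 4 arrays.
Krt8 had ratios below 1 in both pairs, with 12.75 against 13.12 early and 12.85 against 13.03 late, log2 ratios of -0.38 and -0.18. Krt18 gave -0.15 and 0.10, and the late value turned to -0.21 under median scaling. Krt7 gave 0.13 and 0.48, and Krt19 0.09 and 0.32. Krt10 gave 0.19 in both, and its late value turned to -0.10 under median scaling, while its late level minus its early level was -0.75 in the controls and -0.76 with ablation.

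Medians over the 4 basal genes, Krt5 included, were 0.26 early and 0.42 late, against -0.03 and 0.21 for the simple keratins and -0.01 and 0.00 over all genes. Under median scaling, which moved the late median of all genes to -0.21, the late medians were 0.39 for the basal genes and -0.05 for the simple keratins. Krt17 had the largest ratio of the basal layer list in each pair, with log2 ratios of 1.04 early and 1.53 late, from 8.04 against 7.0 and 8.01 against 6.47. It was not detected in the late control, where the dimmest detected probe read 6.50, so the late ratio is not an exact change. For comparison, PDGFRb-TK against wild-type hosts on the larger platform gave 0.87 for Krt14 (SE 0.75; 0.37 without PDGFRb-TK IgG replicate 3) and 0.80 for Krt17 (SE 1.43). On the larger platform Krt17 read 7.02 and 6.55 in the PDGFRb-TK IgG group apart from replicate 3, inside the wild-type range of 6.26 to 8.27. In the suprabasal list 12 of 31 genes passed the filter and 0 reached 2-fold in either pair. Desmin (Des), a muscle and mural filament, had an early log2 ratio of 3.23 beside 11 of 12 skeletal muscle genes at least 2-fold higher. Of all 9714 genes, 92 were at least 2-fold higher in the early pair and 38 in the late pair. In the late pair Des gave -0.65, and the mean of the muscle genes was 6.93 with ablation against 7.91 in the control. Mast cell genes had 4 of 7 at least 2-fold higher in the late pair. The part of these tissues in the keratin ratios was not tested.

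**Figure D5:**
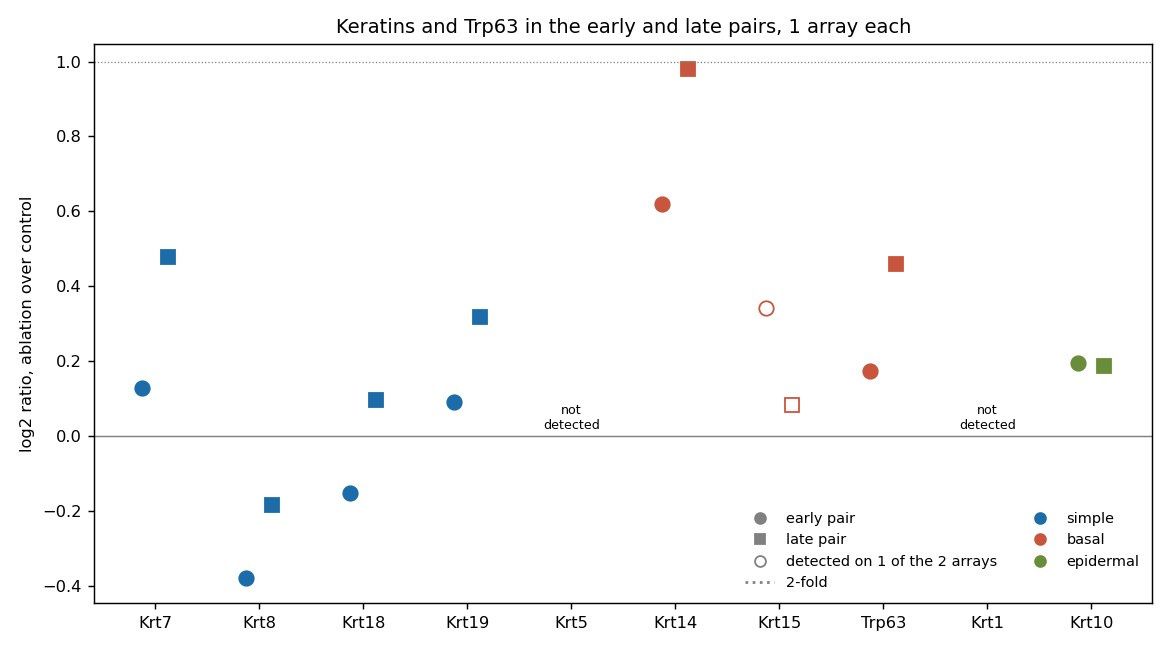
Log2 ratio of ablation over control for each gene in the early (circles) and late (squares) pairs, 1 array each; open symbols were detected on 1 of the 2 arrays, and the dotted line marks 2-fold. Krt14 has the largest ratios among these genes, 0.62 early and 0.98 late, and Krt8 lies below 0 in both.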

How the data were processed

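Per the labels' protocols, biotinylated cRNA from total tumour RNA was run on Illumina bead arrays: 45281 probes on 9 arrays and 25697 on 4. Per the file headers, the deposited tables hold a probe signal, an intensity that is not normalised, and a detection p-value. GenomeStudio is named in the submitters' processing notes, with no version given in the sources used here. Processed intensity values deposited by the authors were, on each array, a linear function of that signal. Of its columns for the larger platform, 6, from 3 arrays, match no sample and were not used. For the smaller platform, the late control's detection column repeats its signal, so its top 42.6% of probes counted as detected there.

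With limma 3.58.1 in R 4.3.3, the 9 arrays were processed with neqc (offset 16), which takes log2 values, and the 4, for which neqc had been chosen, with normexp (offset 50) and quantile normalisation. Probes detected at p below 0.05 on at least 3 of 9 arrays, or 1 of 4, were kept, and the probe with the highest mean was taken for each gene, leaving 11057 and 9714 genes. The 3 groups were fitted together (lmFit, eBayes, Benjamini-Hochberg over all genes at 0.05); the pairs got ratios only. The fit was tested on simulated data. Members, lists and alternatives were chosen with earlier results of these data known. Besides the 10 genes, up to 3 list genes with the largest difference in a comparison and the 5 genes most like Krt8 and Krt14 could be named; others are marked where they appear. Alternatives covered background correction, scaling, the authors' values, the filter, probes per gene, array weights, moderation, the replicate block and each array left out.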

Additional observations from a re-analysis of the deposited data

How the results depend on the processing

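No keratin was called in a group comparison under any alternative run. In the late pair, where called means past 2-fold, the highest log2 ratios over the alternatives were 1.04 for Krt14 and 1.06 for Krt5. Krt5 was not detected on any array of the pairs, so its value is not an exact change. Over all genes the count called stayed at 0 in each group comparison except with array weights, where 1 gene, Slc24a3, was called for anti-Ang2 in PDGFRb-TK hosts against wild type; it was named after its values were seen. Without anti-Ang2 replicate 2 and PDGFRb-TK IgG replicate 3 together, an alternative chosen after seeing the data, the measured signals of Krt1 in that comparison differed by -0.21 in place of 1.19; no wild-type array was above background, so neither is an exact change, and with all arrays the bound is 1.68-fold. Leaving out single arrays moved the basal median from -0.12 to 1.93 and the epidermal from -0.52 to 1.86 for anti-Ang2 against IgG, and the basal median from -0.05 to 0.88 for PDGFRb-TK against wild type. Median scaling moved the median of all genes to -0.10 in both comparisons with wild type and to -0.21 in the late pair, where it gave Krt7 0.10, Krt8 -0.51 and Krt18 -0.21. With the authors' values the late Trp63 ratio was 1.05 (log2) in place of 0.46, also past 2-fold. With these values 637 of 9714 genes reached 2-fold in the late pair, against 103 in the main run. After group means were removed, same-numbered arrays of different groups correlated at -0.162 to 0.391 and differently numbered ones at -0.325 to 0.262. These ranges overlap but the highest value was same-numbered, so whether the replicate numbers pair the samples was not settled. With a replicate block in limma the genes called stayed at 0. Those at an unadjusted p below 0.05 numbered 370, 438 and 871 in place of 325, 369 and 817. The epidermal median over the mean of probes was not run, because Krt1 did not pass the filter. Array weights, which gave anti-Ang2 replicate 2 the lowest weight, turned Krt5 to -0.37 against PDGFRb-TK IgG and -0.07 against wild type. Signals near background limit Krt5, Krt15 and Krt1.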
